A study of Mus musculus with 10 samples.

Results

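The proteasome genes of mouse natural killer (NK) cells are described here at rest and after stimulation with interleukin-15 (IL-15), with bulk spleen cells beside them. They were taken as all genes whose symbol on the array starts with Psm, a letter from a to g and a digit, without the immunoproteasome genes Psmb8, Psmb9 and Psmb10. This gave 46 of the 18193 genes on the array, measured by 99 probe sets, and each gene was read from its brightest probe set. The symbol brings in Psmc3ip, which codes for a meiotic recombination factor that binds the ATPase PSMC3 and is no proteasome subunit, and Psme3ip1, which codes for a protein that binds the cap protein PSME3, so 44 members are subunits, caps, inhibitors or assembly factors. Psme2, the partner of Psme1, was not among them because its single probe set carries a second gene symbol.

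The NK cells came from the spleens of wild-type C57Bl/6 mice and had been flow sorted as NK1.1+CD3- cells. They were either lysed directly (resting, 3 arrays) or lysed after 24 h with IL-15 at 100 ng/mL (3 arrays), a cytokine that keeps NK cells alive and activates them. The series text calls the 3 arrays of each NK condition biological replicates. It also speaks of 3 pairs of NK cells, without saying that equal array numbers mark a pair. The third group was unsorted resting spleen cells, for which the labels name no strain, with 2 biological samples hybridised to 2 chips each (4 chips). No NK cells cultured without IL-15 were compared, so IL-15 and the time in culture cannot be told apart. NK RNA was amplified in a 2-cycle and splenocyte RNA in a 1-cycle procedure, so amplification and cell source cannot be told apart between NK cells and splenocytes.

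The proteasome is the protease that degrades most ubiquitin-tagged proteins of the cytosol and nucleus. Its 20S core is a barrel of outer alpha rings, which gate the entrance, and inner beta rings, which hold the catalytic sites. A 19S particle on the end of the barrel binds the tagged protein, removes the tag with its lid and unfolds the chain with the ATPases of its base, while 11S caps and PA200 can sit there in its place. Dedicated chaperones assemble the core and the base, and in cells of the immune system the catalytic subunits PSMB5, PSMB6 and PSMB7 can be replaced by the immunoproteasome subunits.

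Signals are the linear intensities of the deposited table, and a signal below a floor of 179.8 (7.49 on the log2 scale) was treated as that floor. On the resting NK arrays 57.8% to 61.7% of the probe sets lay above the floor, on the IL-15 arrays 51.1% to 56.4%, and on the splenocyte chips 61.2% to 62.4%. The summed signal of 7 NK markers was 418240.7 to 533511.9 in resting NK cells, 305173.9 to 348660.3 after IL-15 and 44737.6 to 61657.9 in splenocytes. The summed signal of 9 B-cell markers was 41096, 57486.5 and 11904 on resting NK arrays 1 to 3, 4644.2 to 6384.5 after IL-15, where Cd79a, Ms4a1 and Cr2 lay at the floor, and 316101.3 to 386331.9 in splenocytes. The summed signal of 10 macrophage and monocyte markers was 7339.2, 21091.6 and 28392.6 on the resting arrays, 1650.5 to 1997.2 after IL-15, where Lyz1, Mpeg1, Cd14, Marco and Fcgr1 lay at the floor, and 175153.8 to 213726.7 in splenocytes. The summed signal of 9 T-cell markers was 6448.1 to 8216.1, 4649.3 to 5182 and 74172.5 to 87919.6 in the same order. The ratio of the 3′ to the 5′ control probe set of Gapdh, which rises as transcripts are shortened, was 6.13, 9.54 and 5.88 at rest, 2.9 to 3.81 after IL-15 and 1 to 1.39 in splenocytes. For Actb it was 2.27, 6.51 and 3.4 at rest, 1.28 to 1.49 after IL-15 and 1.34 to 1.59 in splenocytes, so that the IL-15 arrays and the splenocyte chips overlapped. The part of the marker signals and of these ratios in the results was not tested.

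Both members that could not be tested are forms known from other tissues. Psma8, the alpha subunit of the testis proteasome, lay below the floor on all 10 arrays. Psmb11, the catalytic subunit of thymic cortical epithelium, lay above it only on IL-15 array 3, at a signal of 277. The other 44 members passed the filter in each comparison.

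Much of the proteasome had a higher signal, relative to the rest of the array, in IL-15-treated than in resting NK cells. Of the 44 members tested 23 were higher after IL-15 and 0 were lower at an adjusted p of 0.05 (limma, Benjamini-Hochberg over the 11433 genes tested), where 14.2% of all genes tested were higher and 12.1% lower (26.3% in either direction). Over all genes this was 1619 higher and 1384 lower, and with each array centred on its median 1375 and 1781. At an unadjusted p of 0.05, 1 member was lower (Psme4). The difference was above 0 for 42 of the 44 members, with a median of 0.68 on the log2 scale (1.6-fold), against a median of -0.09 over all genes tested. With each array centred on its median, Psma6, Psmb3 and Psmd11 also lay below 0. For 30 members every IL-15 array lay above every resting array (20.5% of all genes tested), and for 2, Psme4 and Psme3ip1, every IL-15 array lay below (21.6% of all genes tested). Of the 31 core and 19S subunits 18 were higher, with a median of 0.70. Without IL-15 array 3 the count of members higher fell to 15, and it was also 15 when every gene on the array was tested. Resting array 3 had the lowest B-cell and the highest macrophage marker signal, and it was also the lowest resting array for 26 of the 44 members. With it as the lone resting array, the members' median difference was 0.85, and that of all genes tested was -0.03. In that fit the lone array is assumed to vary like the IL-15 arrays.

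**Figure D1:**
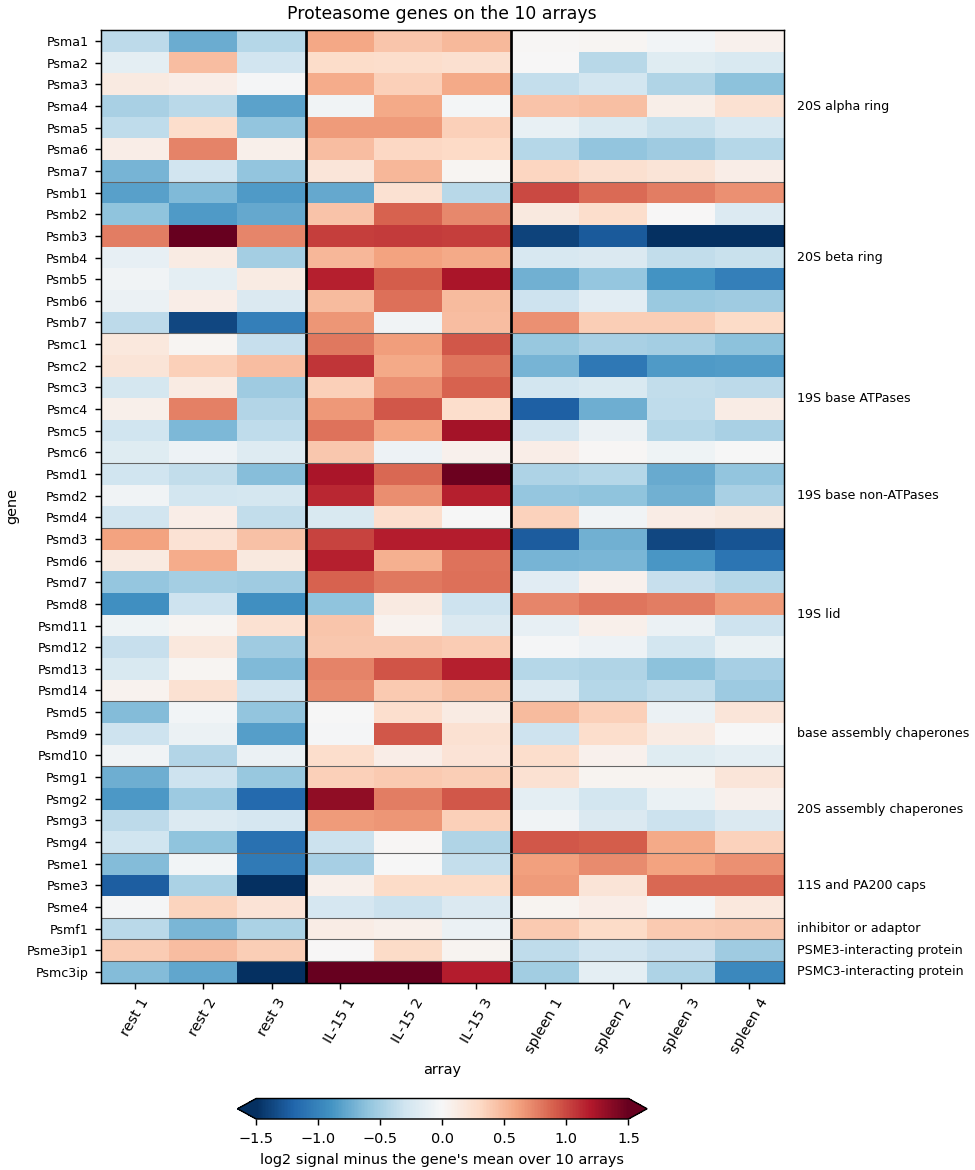
Log2 signal of each of the 44 tested proteasome genes (rows, in role groups) on the 10 arrays (columns) minus the gene's mean over the 10 arrays, with the colour scale limited to 1.5 in each direction. Many rows are highest on the 3 IL-15 arrays, while Psmb1, Psmd8, Psmg4, Psme1 and Psmf1 are highest on the 4 splenocyte chips.

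**Figure D2:**
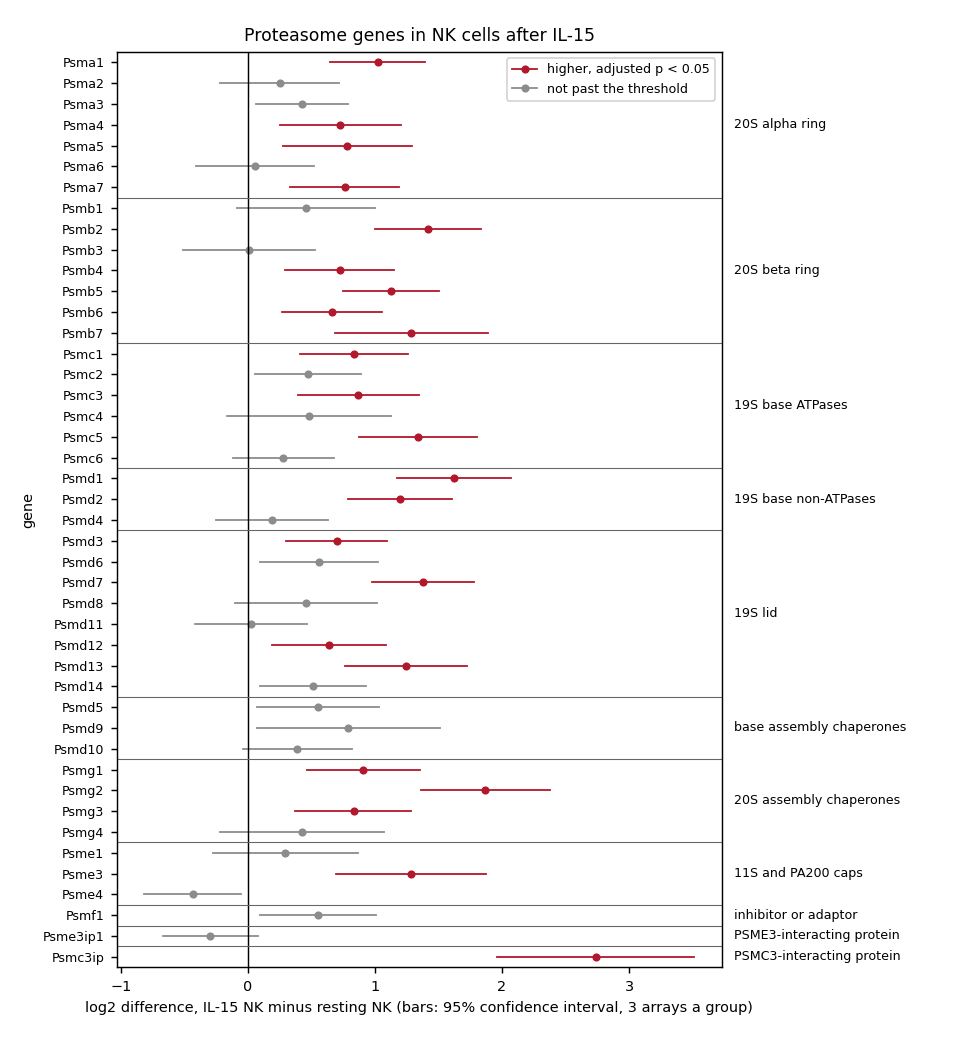
Log2 difference of the mean signal between IL-15 and resting NK cells for each tested proteasome gene, with its 95% confidence interval from limma (3 arrays a group). The 23 genes past the threshold are in red and all lie to the right of 0; the genes to the left of 0 are Psme4 and Psme3ip1.

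Among the catalytic genes of the core all 3 rose. Psmb5, which codes for the chymotrypsin-like subunit, had signals of 14301, 13420 and 16165 at rest and 33263, 27802 and 34708 after IL-15. The groups were well apart, and the rise was 2.18-fold (95% interval 1.68 to 2.83, adjusted p = 0.0011). Psmb7, which codes for the trypsin-like subunit, had signals of 15284, 7764 and 9815 at rest and 31821, 19326 and 27512 after IL-15, a rise of 2.44-fold (1.61 to 3.69, adjusted p = 0.0063). Resting array 1 and IL-15 array 2 came closest, and the call was lost when every gene was tested (adjusted p = 0.094). Psmb6, which codes for the caspase-like subunit, had signals of 9924, 11344 and 9108 at rest and 14673, 18702 and 14725 after IL-15. Its rise was the smallest of the 3, at 1.58-fold (1.2 to 2.08, adjusted p = 0.021), and the groups did not overlap. This call was lost without IL-15 array 2 or 3, without resting array 1 or 3, with every gene tested and with no trend in the variance (adjusted p from 0.051 to 0.074).

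The other beta-ring genes were divided. Psmb2, a structural beta subunit, had signals of 4011, 3368 and 3561 at rest and 8169, 11204 and 9992 after IL-15. Every IL-15 array was above the resting arrays, and the gene rose 2.67-fold (2 to 3.57, adjusted p = 0.00053). Psmb4 rose 1.65-fold (adjusted p = 0.019), also without overlap. It passed in 10 of 17 settings, the reported test and its alternatives, and not without any 1 of the IL-15 arrays, without resting array 3, with every gene tested, with the mean over its probe sets or with the probe set of the smallest difference. Psmb1, another structural subunit, had signals of 5920, 6565 and 5768 at rest and 6109, 12188 and 7814 after IL-15. IL-15 array 2 stood far above the other two, array 1 lay among the resting arrays, and the 1.37-fold difference did not pass (adjusted p = 0.20). Psmb3 had signals of 39152, 69343 and 38434 at rest and 47212, 47699 and 47194 after IL-15. The IL-15 arrays were nearly identical and lay between the resting ones, and the ratio was 1.01 (0.702 to 1.44, adjusted p = 0.98). Of the 7 tested beta-ring genes 5 were higher and 2 did not pass.

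Of the 7 tested alpha-ring genes, which form the gate of the core and bind the caps, 4 rose and 3 did not pass. Psma1 had signals of 13404, 10468 and 13077 at rest and 26389, 23512 and 24639 after IL-15, and rose 2.03-fold (1.56 to 2.63, adjusted p = 0.0018). The call was lost with the mean over its probe sets (adjusted p = 0.25) and with the probe set of the smallest difference (adjusted p = 0.82). The latter was dim, with signals of 357, 104 and 238 at rest and 236, 218 and 387 after IL-15. Psma5 rose 1.72-fold (adjusted p = 0.029), Psma7 1.69-fold (adjusted p = 0.016) and Psma4 1.65-fold (adjusted p = 0.031). Psma5 passed in 9 of 17 settings and Psma4 in 10, and both lost the call with every gene tested, with median centring, with no trend in the variance and without resting array 1 or 3. Without an IL-15 array Psma5 lost it for each of the 3, and Psma4 for arrays 2 and 3. Psma7 passed in 14 of 17 settings, and not with every gene tested or without IL-15 array 2 or resting array 1. Psma3 had a 1.34-fold difference with no overlap of the arrays that did not pass (adjusted p = 0.084). Psma2 and Psma6 had ratios of 1.19 (adjusted p = 0.42) and 1.04 (adjusted p = 0.88). In both, resting array 2 had the highest signal of all 6 NK arrays.

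In the 19S base, the ring of ATPases that unfolds substrates had 3 of 6 genes higher. Psmc5 had signals of 6317, 4866 and 5958 at rest and 13689, 11636 and 18544 after IL-15, a rise of 2.53-fold (1.83 to 3.49, adjusted p = 0.0014). The arrays were clearly separated. Psmc3 rose 1.82-fold (adjusted p = 0.014) and Psmc1 1.79-fold (adjusted p = 0.0095). Both calls were lost without IL-15 array 3 (adjusted p of 0.069 and 0.051), and that of Psmc3 also with every gene tested (adjusted p = 0.098). Psmc2 had signals of 36164, 40357 and 43580 at rest and 66606, 46708 and 54909 after IL-15. These groups did not overlap either, but the 1.39-fold difference did not pass (adjusted p = 0.09). Psmc4 and Psmc6 had ratios of 1.4 (adjusted p = 0.25) and 1.21 (adjusted p = 0.28), and their arrays overlapped.

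Both large scaffold genes of the base rose. Psmd1 had signals of 5981, 5682 and 4708 at rest and 17160, 13337 and 20356 after IL-15. The lowest IL-15 array was above the highest resting array by a wide margin, and the gene rose 3.08-fold (2.26 to 4.19, adjusted p = 0.00036). Psmd2, the scaffold that docks ubiquitin-binding shuttle proteins, had signals of 12023, 10279 and 10386 at rest and 27294, 20154 and 27906 after IL-15, a rise of 2.29-fold (1.72 to 3.04, adjusted p = 0.0012). Psmd4, a ubiquitin receptor of the base, had a ratio of 1.14 (0.839 to 1.55, adjusted p = 0.53), and its arrays overlapped.

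The lid, which carries the enzyme that cuts off ubiquitin, had 4 of 8 genes higher. Psmd7, the partner of that enzyme, had signals of 2099, 2209 and 2174 at rest and 5786, 5459 and 5567 after IL-15. Both groups were tight, with SDs of 0.04 on the log2 scale in each, and the rise was 2.59-fold (1.97 to 3.42, adjusted p = 0.00049). Psmd13 had signals of 5292, 6309 and 3913 at rest and 10410, 11960 and 13963 after IL-15, and rose 2.37-fold (1.7 to 3.3, adjusted p = 0.0022). Psmd3 had signals of 5598, 4291 and 5021 at rest and 7435, 8340 and 8319 after IL-15. This was a separation of all arrays and a rise of 1.62-fold (1.23 to 2.14, adjusted p = 0.016), lost without IL-15 array 2 (adjusted p = 0.051), without IL-15 array 3 (adjusted p = 0.07) and with resting array 3 as the lone resting array (adjusted p = 0.072). Psmd12 rose 1.56-fold (adjusted p = 0.041) and passed in only 8 of 17 settings. It did not pass with every gene tested, with quantile normalization, with median centring, with no trend in the variance, without any 1 of the IL-15 arrays or without resting array 1 or 3 (adjusted p from 0.062 to 0.14).

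Psmd14, which codes for the deubiquitinating enzyme itself, had a 1.43-fold difference whose arrays did not overlap but which did not pass (adjusted p = 0.072). Psmd6 had signals of 13091, 17567 and 13171 at rest and 26791, 17196 and 21036 after IL-15. IL-15 array 2 lay just under resting array 2, and the 1.47-fold difference did not pass (adjusted p = 0.075). Without either of these arrays it did, with adjusted p of 0.047 without the IL-15 array and 0.026 without the resting array. Psmd8 had signals of 3397, 5148 and 3384 at rest and 4218, 7047 and 5150 after IL-15, with overlap (1.37-fold, adjusted p = 0.21). For Psmd11 the ratio was 1.02 (adjusted p = 0.94).

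Of the 4 chaperones that assemble the core, 3 rose. Psmg2, which pairs with PSMG1 to build the alpha ring, had signals of 2279, 2843 and 1848 at rest and 10411, 7061 and 7936 after IL-15. No other gene of the proteasome proper had a larger rise, at 3.65-fold (2.57 to 5.2, adjusted p = 0.00034). Psmg1 had signals of 1905, 2538 and 2130 at rest and 4037, 4152 and 4064 after IL-15, and rose 1.88-fold (1.38 to 2.56, adjusted p = 0.0081). Psmg3 rose 1.78-fold (adjusted p = 0.014), a call lost without IL-15 array 1 (adjusted p = 0.056) or resting array 1 (adjusted p = 0.051), with resting array 3 alone (adjusted p = 0.074) and with the probe set of the smallest difference. Psmg4, the partner of PSMG3, had signals of 1377, 1118 and 782 at rest and 1361, 1723 and 1244 after IL-15, with overlap (1.34-fold, adjusted p = 0.31). Of the 3 chaperones of the 19S base, Psmd5, Psmd9 and Psmd10, 0 passed in limma (2 at an unadjusted p of 0.05). By the brightest probe set the IL-15 arrays of each lay above the resting arrays, with adjusted p of 0.086, 0.1 and 0.17. The 2 dimmer probe sets of Psmd9 went the other way without passing (-0.80 and -0.72 on the log2 scale). The mean over its probe sets gave -0.24.

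The caps moved unequally. Psme3, the 11S cap protein of the nucleus, had signals of 2104, 3578 and 1766 at rest and 5214, 6068 and 6048 after IL-15, and rose 2.43-fold (1.62 to 3.65, adjusted p = 0.0058). The groups did not overlap, and the call was lost when every gene was tested (adjusted p = 0.071). Psme1, an 11S cap protein of the cytosol that interferon gamma induces, had signals of 10142, 15535 and 7655 at rest and 11281, 15862 and 12457 after IL-15. Its groups overlapped (1.23-fold, 0.826 to 1.82, adjusted p = 0.44). Psme4, which codes for the PA200 cap, had signals of 7873, 10011 and 9198 at rest and 6713, 6380 and 6860 after IL-15. All IL-15 arrays lay below the resting arrays, and the 1.35-fold lower level did not pass (adjusted p = 0.088). It did pass with each array centred on its median (adjusted p = 0.041).

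Psmf1, whose product PI31 binds the core and inhibits it in vitro, had signals of 2248, 1857 and 2148 at rest and 3220, 3138 and 2800 after IL-15. The groups did not overlap and the 1.47-fold difference did not pass (1.07 to 2.01, adjusted p = 0.073), but it passed in a fit over all 3 groups (adjusted p = 0.037) and with every gene tested (adjusted p = 0.042). The recombination factor Psmc3ip had signals of 576, 525 and 291 at rest and 3474, 3651 and 2046 after IL-15, a rise of 6.66-fold (3.89 to 11.4, adjusted p = 0.00042). It was the member with the highest fold in this comparison. Psme3ip1 had signals of 8005, 8460 and 7897 at rest and 6144, 7472 and 6286 after IL-15, and its 1.23-fold lower level did not pass (adjusted p = 0.23).

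**Figure D3:**
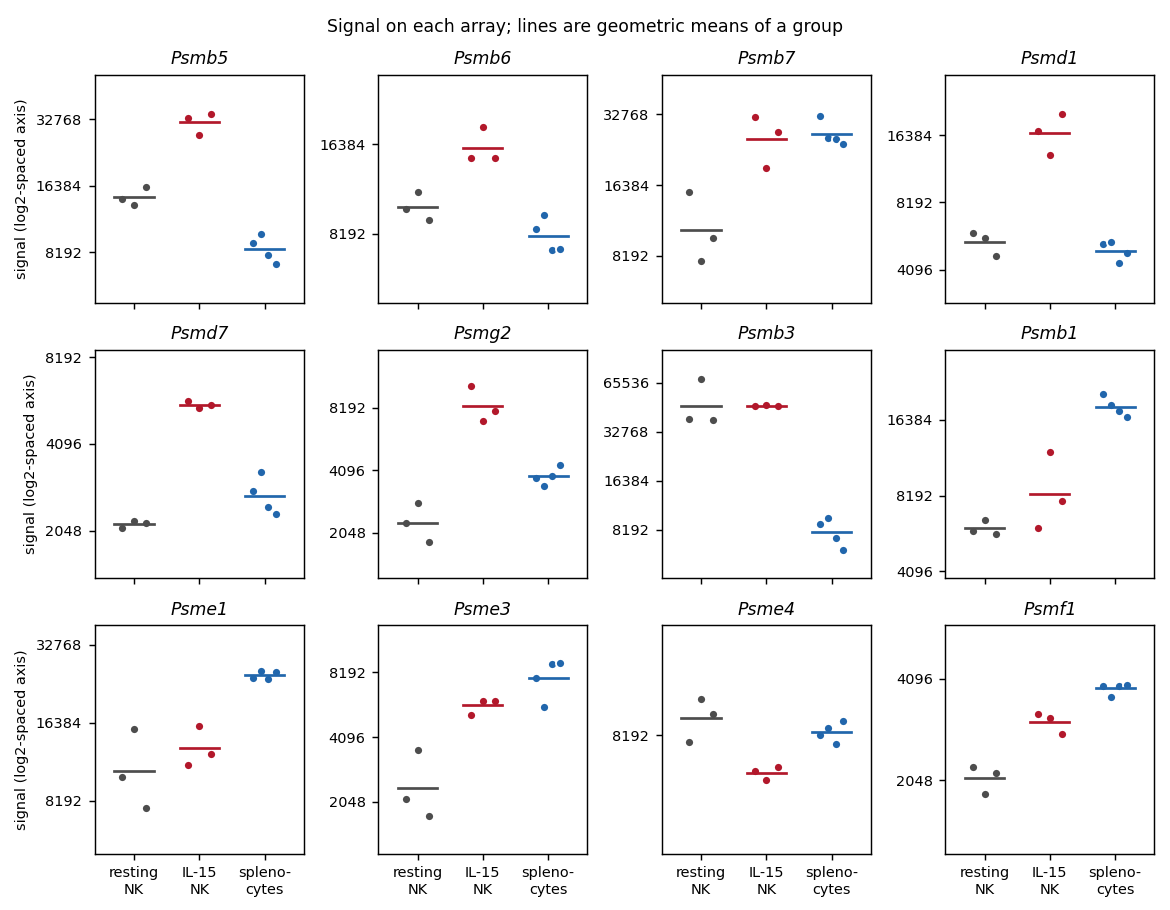
Signal of 12 proteasome genes on each array, on a log2-spaced axis whose range differs between panels, with the geometric mean of each group as a line (3 resting NK arrays, 3 IL-15 NK arrays, 4 splenocyte chips). Psmb5, Psmb7, Psmd1, Psmd7 and Psmg2 are higher on the IL-15 arrays than on the resting arrays with no overlap, while Psmb3 sits at about the same level in both NK groups, above the splenocyte chips.

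The promoters of the members were searched for the letters of binding motifs. RefSeq promoter windows (GRCm38.p6, from 250 bases before to 50 after each transcript start) were found for 38 members in 41 windows, including 17 of the 23 members higher after IL-15. Not covered were Psma8, Psmb1, Psmb2, Psmb7, Psmc3, Psmd3, Psmd7 and Psmg2. Motifs were searched on both strands. The core letters of ETS factor sites, CCGGAAG, were in 17 of the 41 member windows (41.5%), against 17.7% of the 11888 windows of tested genes and 8.86% of all 32851 windows. The 16 genes that hold them included 8 of the members higher after IL-15, where 17 of all 38 members with a window were higher. Whether the letters go with the rise was not tested. The core of the antioxidant response element, TGACNNNGC, to which the proteasome gene regulators NRF1 and NRF2 bind, was in 6 member windows (14.6%), against 14.2% of the windows of tested genes. CCAAT boxes were in 36.6% of member windows against 37.4%, and E-boxes (CACGTG) in 9.76% against 9.72%. In 0 member windows did matches of different motifs overlap. A match describes letters only.

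Shown are the 80 bases before the start of 6 members that rose, the catalytic genes Psmb5 and Psmb6 with the antioxidant core and 4 genes of the base, lid and core assembly with the ETS core. Each is written 5′ to 3′ on the gene's strand, and capitals mark the match. The positions on GRCm38.p6 are chr14:54617996-54618075 on the minus strand for Psmb5, chr11:70525277-70525356 on the plus strand for Psmb6, chr16:20651572-20651651 on the plus strand for Psmd2, chr12:100110122-100110201 on the plus strand for Psmc1, chr11:107479448-107479527 on the plus strand for Psmd12 and chr16:95990961-95991040 on the minus strand for Psmg1.
Psmb5: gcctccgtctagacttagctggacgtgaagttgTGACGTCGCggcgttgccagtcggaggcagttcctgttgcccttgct
Psmb6: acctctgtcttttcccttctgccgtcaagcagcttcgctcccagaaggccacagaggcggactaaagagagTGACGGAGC
Psmd2: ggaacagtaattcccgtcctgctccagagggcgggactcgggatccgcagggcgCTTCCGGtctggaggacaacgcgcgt
Psmc1: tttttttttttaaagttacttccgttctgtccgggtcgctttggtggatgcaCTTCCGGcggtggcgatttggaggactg
Psmd12: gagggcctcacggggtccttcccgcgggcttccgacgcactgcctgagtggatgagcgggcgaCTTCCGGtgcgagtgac
Psmg1: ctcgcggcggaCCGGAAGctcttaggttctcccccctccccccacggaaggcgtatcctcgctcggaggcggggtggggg
The match starts 47 bases before the transcript start in Psmb5 and 9 bases before it in Psmb6. In Psmd2, Psmc1 and Psmd12 the ETS letters lie on the opposite strand, starting 26, 28 and 17 bases before the start, and in Psmg1 they start 69 bases before it on the gene's own strand.

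Of 20 other genes of the pathway on the array, which code for assembly, shuttle and regulatory proteins around the proteasome, 6 were higher after IL-15 and 2 were lower (14.2% and 12.1% of all genes tested), with a median log2 difference of 0.22 against -0.09 over all genes tested. The highest were Uchl5, a deubiquitinating enzyme of the 19S particle (2.76-fold, adjusted p = 0.00072), Rad23b, a shuttle that delivers ubiquitinated proteins (2.72-fold, adjusted p = 0.0018), and Nploc4, a cofactor of the segregase VCP (2.26-fold, adjusted p = 0.0084). Vcp itself rose 2.11-fold (adjusted p = 0.0019). Pomp, the maturation factor of the beta ring, had signals of 4918, 5606 and 4238 at rest and 8085, 11421 and 8304 after IL-15, and rose 1.87-fold (adjusted p = 0.0086). The genes lower were Zfand5, a ubiquitin-binding protein that associates with the proteasome (2.45-fold, adjusted p = 0.0042), and Ubqln2, a shuttle (1.72-fold, adjusted p = 0.045). Nfe2l1, which codes for NRF1, had a ratio of 1.04 downwards (adjusted p = 0.89), and Nfe2l2, which codes for NRF2, one of 1.06 upwards (adjusted p = 0.82).

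The immunoproteasome genes, which stand in for the catalytic genes above, had 0 of 3 past the threshold in the same limma comparison and 1, Psmb8, at an unadjusted p of 0.05. Psmb8 had signals of 15993, 15776 and 12142 at rest and 18276, 22567 and 22163 after IL-15 (1.44-fold, adjusted p = 0.057). The ratios of Psmb9 and Psmb10 were 1.22 (adjusted p = 0.37) and 1.21 (adjusted p = 0.41). The difference between these genes and Psmb5, Psmb6 and Psmb7 was not tested.

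Resting NK cells and splenocytes differed in both directions. Of the 44 members tested 8 were higher in resting NK cells and 14 lower (17.1% and 21.5% of the 12938 genes tested, 38.6% in either direction), with a median log2 difference of -0.10 against -0.06 over all genes tested. For 10 members every NK array lay above every splenocyte chip (22.7% of all genes tested), and for 15 below (27%). Splenocytes are a mixture of cell types, in which fewer cells of a type and less RNA per cell cannot be told apart. The p-values are the largest over the 3 ways in which 4 chips can form 2 samples.

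The members higher in resting NK cells were Psma3, Psma6, Psmb3, Psmb5, Psmc2, Psmd3, Psmd6 and Psme3ip1. Psmb3 had signals of 8838, 9638, 7272 and 6166 in splenocytes, far below the resting NK range of 38434 to 69343, a ratio of 5.99 (3.93 to 9.13, adjusted p = 0.00014). Psmd3 had signals of 1555, 2246, 1429 and 1501 in splenocytes, all below the resting NK arrays, and was 2.99-fold higher in resting NK cells (2.25 to 3.97, adjusted p = 0.00023). Psmc2 had signals of 19504, 15004, 17546 and 17601 in splenocytes (2.3-fold, adjusted p = 0.0012), again with no overlap. Psmd6 had signals of 7379, 7427, 6491 and 5558 (2.17-fold, adjusted p = 0.0044). Psma6 had signals of 24682, 22012, 22917 and 24790 in splenocytes against 35504, 55509 and 34943 in resting NK cells (1.74-fold, adjusted p = 0.018), a call lost with every gene tested (adjusted p = 0.052). That of Psma3 passed in 12 of 17 settings, and not with a floor at the 20th percentile, with quantile normalization, without resting array 1, with resting array 3 alone or with the mean over its probe sets. Of the catalytic genes, Psmb5 was higher in resting NK cells (splenocyte signals 9010, 9932, 7968 and 7266, 1.72-fold, adjusted p = 0.0064). Psmb6, at 8515, 9512, 7214 and 7300 in splenocytes, overlapped with the resting NK arrays (1.25-fold, adjusted p = 0.19).

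The members lower in resting NK cells included caps, core chaperones and several core subunits. Psme3 had signals of 7735, 5680, 9008 and 9049 in splenocytes, all above the resting NK arrays, and was 3.27-fold lower in resting NK cells (adjusted p = 0.0020). Psme1, with 24345, 26018, 24247 and 25660 in splenocytes, was 2.35-fold lower (adjusted p = 0.0094). Psmf1, with 3902, 3624, 3910 and 3939, was 1.85-fold lower (adjusted p = 0.0035), again with every splenocyte chip above the NK arrays. Psmb1 had signals of 20712, 18810, 17735 and 16785 in splenocytes and was 3.04-fold lower in resting NK cells (adjusted p = 0.0018). Psmd8, with 10638, 11192, 10875 and 9962, was 2.73-fold lower (adjusted p = 0.0029), and Psmg4, with 3248, 3180, 2524 and 2157, was 2.57-fold lower (adjusted p = 0.0069). None of these groups overlapped. The catalytic gene Psmb7, at 32261, 25938, 25790 and 24549 in splenocytes, was 2.56-fold lower (adjusted p = 0.0086).

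Psmb2 was 1.74-fold lower in resting NK cells (adjusted p = 0.009), with splenocyte signals of 6710, 7304, 6124 and 5284. Psmg2, with 3758, 3436, 3864 and 4343, was 1.68-fold lower (adjusted p = 0.033), a call that was lost without resting array 1 (adjusted p = 0.070), resting array 3 (adjusted p = 0.078) or splenocyte chip 4 (adjusted p = 0.053) and with every gene tested (adjusted p = 0.079). Psma1, Psma4, Psma7, Psmd5 and Psmg1 were lower by 1.46- to 1.82-fold. Of these Psmd5 passed in 9 of 17 settings, and not with every gene tested, with median centring, with no trend in the variance, without resting array 1 or 3 or without splenocyte chip 1, 2 or 4. The call of Psma1 was lost with resting array 3 alone (adjusted p = 0.064), and that of Psma4 with every gene tested (adjusted p = 0.051). Psme4 had signals of 8180, 8513, 7814 and 8858 in splenocytes, which overlapped with the resting NK arrays (ratio 1.08, adjusted p = 0.60). Of the ATPase genes 1 of 6 passed, and of the base scaffold and receptor genes 0 of 3 in limma (0 at an unadjusted p of 0.05). The second probe set of the receptor gene Psmd4 did pass, as 3.53-fold lower at rest (limma, adjusted p = 0.00025). Its signals were 2058, 2605 and 2319 at rest and 8706, 7758, 8271 and 7960 in splenocytes. After IL-15 it was 2.46-fold lower than in splenocytes (adjusted p = 0.0012). In the lid 2 of 8 were higher and 1 lower.

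IL-15-treated NK cells had more members above splenocytes than resting NK cells had. Of the 44 members tested 25 were higher than in splenocytes and 4 lower (20.8% and 23.5% of the 12465 genes tested, 44.3% in either direction), with a median of 0.69 against -0.10 over all genes tested. For 28 members every IL-15 array lay above every splenocyte chip (27.8% of all genes tested) and for 6 below (29.8%). This comparison shares its arrays with both others, and the difference between the counts was not tested. The count of members lower was 2 without IL-15 array 1 and also 2 without IL-15 array 3.

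The largest ratio was again that of Psmb3 (6.03, 3.95 to 9.2, adjusted p = 0.00012), while its second probe set gave 2.04 (adjusted p = 0.0023). Psmd3 was 4.85-fold (adjusted p = 3.2e-05) and Psmb5 3.75-fold higher than in splenocytes (adjusted p = 5.3e-05), and both were also higher in resting NK cells and rose with IL-15. Psmc3ip had signals of 630, 818, 652 and 463 in splenocytes and was 4.71-fold higher after IL-15 (adjusted p = 0.002), while at rest its 1.41-fold lower level did not pass (adjusted p = 0.35). Its second probe set, which lay below the floor on all 3 resting arrays, was at least 3.56-fold lower at rest (adjusted p = 0.00055), and the mean over its probe sets passed as lower (adjusted p = 0.0073). Psmd1, at 5314, 5455, 4370 and 4874 in splenocytes, was 3.35-fold higher after IL-15 (adjusted p = 0.00025) and had a ratio of 1.09 at rest (adjusted p = 0.68). Psmd7 had splenocyte signals of 2801, 3283, 2482 and 2345. It was 2.07-fold higher after IL-15 (adjusted p = 0.00099), and at rest the ratio was 1.25 downwards (adjusted p = 0.15). Psmc2 and Psmd6 were each 3.2-fold higher after IL-15 by the brightest probe set. By the second, Psmc2 was 2.3-fold higher (adjusted p = 0.00097), and the 1.23-fold difference of Psmd6 did not pass (adjusted p = 0.31). Psma6 was 1.8-fold higher, and Psme3ip1 1.41-fold, the last not past without IL-15 array 2 (adjusted p = 0.059). Among the 25 members higher, Psma1 passed in 8 of 16 settings, Psmc4 in 9 and Psma5 in 10.

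Several members that were lower than in splenocytes at rest did not pass as lower after IL-15 when read from the brightest probe set. Psmb7 had a ratio of 1.05 downwards with overlapping arrays (interval 0.585 to 1.55, adjusted p = 0.87). Psme3 had a 1.34-fold lower level that did not pass (0.469 to 1.18, adjusted p = 0.27). Its second probe set, with signals of 1544, 1460 and 1937 after IL-15 against 4576, 4180, 6754 and 6158 in splenocytes, was 3.25-fold lower (adjusted p = 0.0057), and the mean over its probe sets passed as lower (adjusted p = 0.0033). Psma7 had a ratio of 1.02 (adjusted p = 0.93). Psmg2 went from below the splenocyte chips at rest to 2.18-fold above them (adjusted p = 0.0048) by its brightest probe set. By the second, with signals of 5292, 3957 and 4427 after IL-15 against 5945, 6073, 5870 and 5637 in splenocytes, every IL-15 array lay below the chips (1.3-fold, adjusted p = 0.12). Psmb2 was 1.54-fold above (adjusted p = 0.024), a call lost without IL-15 array 2 or 3 (adjusted p of 0.066 and 0.065) and with quantile normalization (adjusted p = 0.054). The 4 members lower than in splenocytes after IL-15 were Psmb1 (2.21-fold, adjusted p = 0.0081), Psmd8 (1.99-fold, adjusted p = 0.015), Psme1 (1.92-fold, adjusted p = 0.027) and Psmg4 (1.92-fold, adjusted p = 0.032). All 4 were also lower at rest. The calls of Psme1 and Psmg4 were lost without IL-15 array 1 or 3 and with every gene tested (adjusted p from 0.070 to 0.088), and that of Psmd8 with every gene tested (adjusted p = 0.050). That of Psmg4 was also lost without splenocyte chip 1 or 2 and with quantile normalization (adjusted p from 0.058 to 0.071). Psmf1 and Psme4 had levels 1.26-fold and 1.25-fold lower that did not pass (adjusted p of 0.14 and 0.1). Psme4 passed as lower with quantile normalization (adjusted p = 0.031), the mean over its probe sets (adjusted p = 0.012) and the 4 chips as separate arrays (adjusted p = 0.046).

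**Figure D4:**
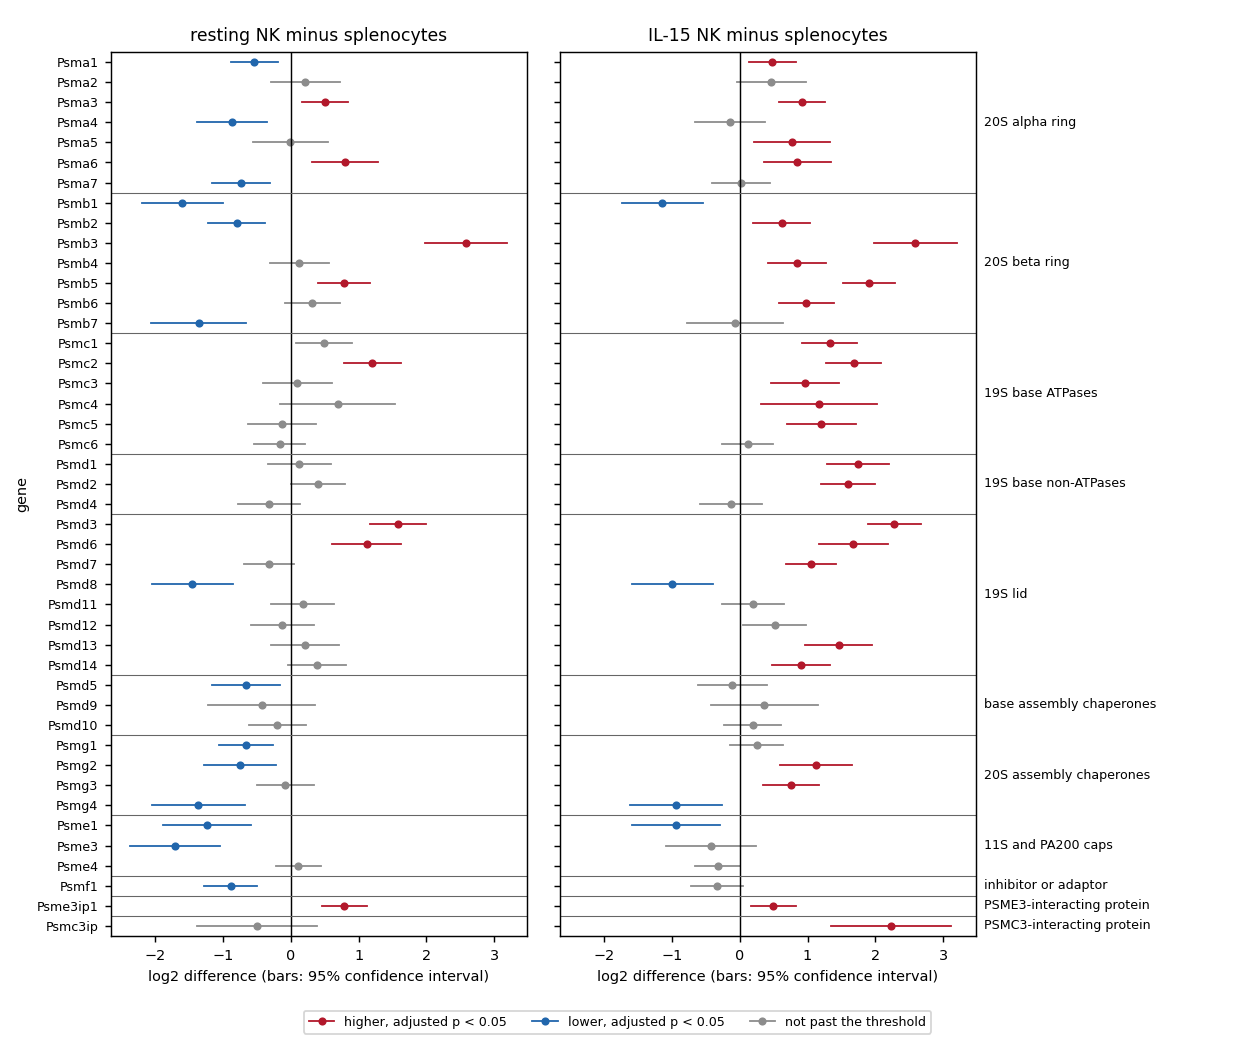
Log2 difference of the mean signal of resting NK cells (left) and of IL-15 NK cells (right) from splenocytes for the 44 tested proteasome genes, with 95% confidence intervals from limma (3 arrays a group against 2 averaged splenocyte samples). On the left 8 genes are higher (red) and 14 lower (blue), and on the right 25 are higher and 4 lower.

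Of the other pathway genes 6 were higher and 1 lower in resting NK cells than in splenocytes (17.1% and 21.5% of all genes tested), and 11 higher and 2 lower after IL-15 (20.8% and 23.5%). Ecpas, an adaptor that tethers the 19S particle to the core, was 3.19-fold higher at rest (adjusted p = 0.041) and 3.01-fold higher after IL-15 (adjusted p = 0.046). Zfand2a, a stress-induced proteasome-binding protein, was 2.47-fold (adjusted p = 0.0036) and 2.75-fold higher (adjusted p = 0.0018), and the lid subunit Sem1 was 1.81-fold higher at rest (adjusted p = 0.049). Uchl5 was 2.64-fold higher than in splenocytes after IL-15 (adjusted p = 0.0010). Pomp was 3-fold lower at rest (adjusted p = 0.00042) and 1.6-fold lower after IL-15 (adjusted p = 0.022), and Zfand5 was 2.11-fold lower after IL-15 (adjusted p = 0.013). Nfe2l1 was 1.7-fold higher at rest (adjusted p = 0.034) and 1.64-fold higher after IL-15 (adjusted p = 0.041). Of the immunoproteasome genes, Psmb10 was 1.77-fold higher after IL-15 than in splenocytes (adjusted p = 0.024), while Psmb8 (1.11-fold, adjusted p = 0.52) and Psmb9 (1.02-fold lower, adjusted p = 0.93) did not pass.

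The probe sets of a gene did not always give the same reading. For 23 members at least 2 probe sets could be tested, and each was then tested singly. Between IL-15 and resting NK cells both the brightest and the second brightest probe set were higher for 7 members (Psma5, Psma7, Psmc3ip, Psmd7, Psmd13, Psme3 and Psmg2), only the brightest for 3 and only the second for 6 (Psma6, Psmb3, Psmc2, Psmc4, Psmc6 and Psmd6). No gene had calls in opposite directions in that comparison. For Psmb3, the second probe set had signals of 8108, 10224 and 6988 at rest and 14062, 15672 and 14805 after IL-15. The groups were apart, and the difference was 1.78-fold (adjusted p = 0.010), where the brightest showed none. For Psmc2, the second probe set had signals of 15594, 15630 and 16525 at rest and 36115, 28086 and 37276 after IL-15, a 2.11-fold rise (adjusted p = 0.0019). Counting a member as higher when any of its probe sets was, 29 of the 44 were higher and 1, Psme4, was lower through a dimmer probe set (16.5% and 15.9% of the 11517 genes counted in this way).

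Against splenocytes the probe sets of 1 gene, Psmd6, had calls in opposite directions at rest, and those of 0 genes did after IL-15. Counted by any probe set, 8 members were higher and 20 lower in resting NK cells (21.1% and 31.9% of genes), and 26 higher and 10 lower after IL-15 (23.9% and 33.1%), against 4 lower after IL-15 by the brightest. For Psmd6 the brightest probe set was 2.17-fold higher in resting NK cells and the second 1.81-fold lower (adjusted p = 0.016), with signals of 6622, 7945 and 4751 in resting NK cells against 12011, 11657, 10671 and 11181 in splenocytes. The second probe set of Psmb3 had a ratio of 1.15 (adjusted p = 0.44), where the brightest gave 5.99, and that of Psmc2 1.09 (adjusted p = 0.63), where the brightest gave 2.3. With each gene read from the probe set of the smallest difference, 4 members in place of 8 were higher in resting NK cells than in splenocytes, and 16 in place of 25 after IL-15. For Psme3 and Psmg2 the second probe set went the same way as the brightest and further, with resting NK cells 9.27-fold and 5.91-fold lower than splenocytes. With the mean over a gene's probe sets, the calls between resting NK cells and splenocytes of Psma1 (adjusted p = 0.26), Psma3 (adjusted p = 0.86), Psmb1 (adjusted p = 0.28), Psmc2 (adjusted p = 0.11), Psmd6 (adjusted p = 0.62) and Psmf1 (adjusted p = 0.082) were lost, while Psmb4 passed as higher and Psmc3ip, Psmd4 and Psmd11 as lower. After IL-15 those of Psma1 (adjusted p = 0.98), Psma3 (adjusted p = 0.86), Psma5 (adjusted p = 0.083), Psmb1 (adjusted p = 0.13) and Psmg2 (adjusted p = 0.33) were lost, while Psmc6 passed as higher and Psmd4, Psmd11, Psme3 and Psme4 as lower. Between IL-15 and resting NK cells Psma1 and Psmb4 were lost, and Psmc4, Psmc6 and Psmd6 were gained, all as higher.

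**Figure D5:**
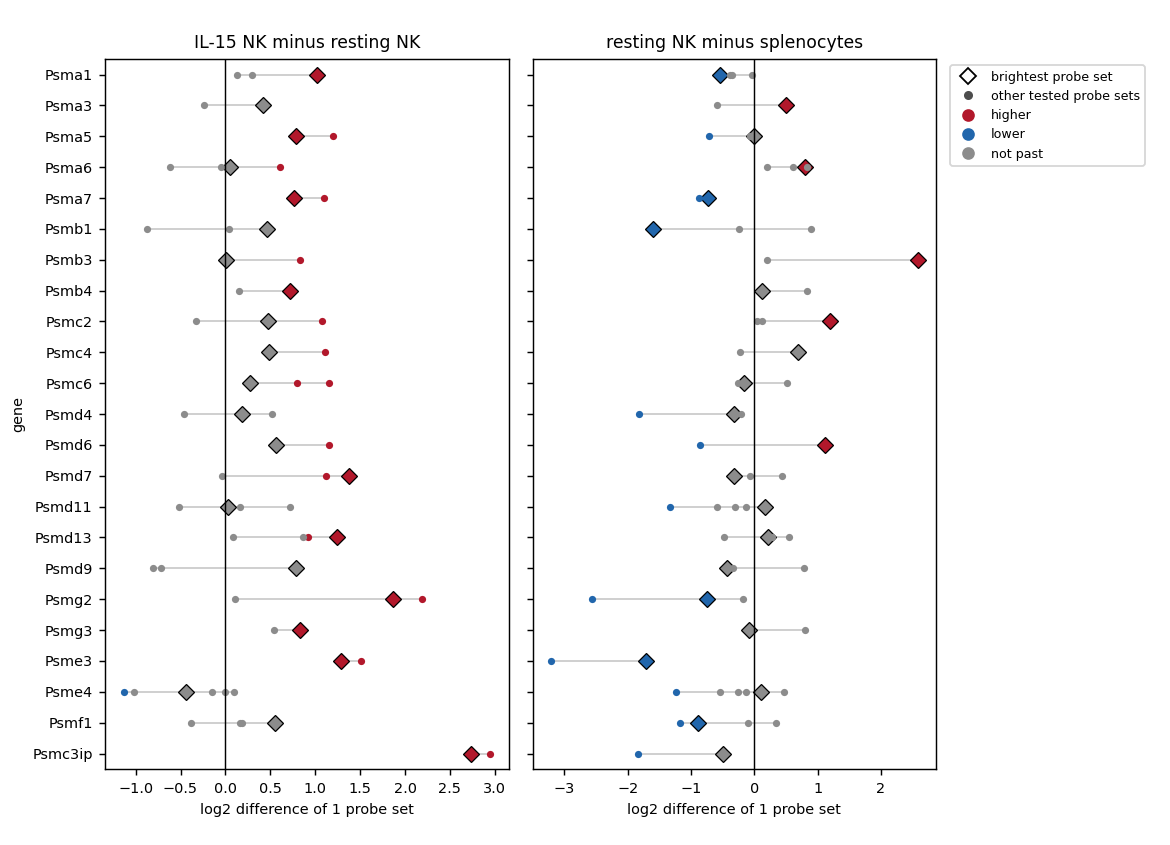
Log2 difference of every tested probe set of the 23 members with at least 2, between IL-15 and resting NK cells (left) and between resting NK cells and splenocytes (right). The diamond is the brightest probe set and the dots are the others, coloured by the test, and Psmd6 on the right is the only gene with calls on both sides of 0.

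The members also differed in how far the arrays of a group spread. The median SD of the log2 signal over the 44 tested members was 0.23 in resting NK cells, 0.21 after IL-15 and 0.14 in splenocytes. The splenocyte SD is over 4 chips of 2 biological samples and the NK SDs over 3 biological replicates, so they measure unlike spreads. At rest the SD ran from 0.04 (Psmd7) to 0.59 (Psmc4), after IL-15 from 0.01 (Psmb3) to 0.51 (Psmb1) and in splenocytes from 0.04 (Psma1) to 0.56 (Psmc4). Psmc4 had splenocyte signals of 5284, 7412, 9461 and 13355, the widest range among the members there. Resting array 2 was the highest of the 3 resting arrays for 28 of the 44 members, and resting array 3 the lowest for 26. Array 2 had the highest 3′ to 5′ ratio of the 3 for both Gapdh and Actb, while array 3 had the lowest for Gapdh and array 1 for Actb, and the part of these ratios in the members' levels was not tested.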

How the data were processed

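RNA of 3 resting NK, 3 IL-15 NK and 4 splenocyte samples was hybridised to 1-colour Affymetrix MOE430_2 arrays. The values used are linear intensities, as deposited, and GCOS 1.4 is named as the software in the submitters' processing notes. How probes were summarised is not given in the sources used here. The mean after trimming 2% at each end was 1500 on every array, so levels are relative within an array and a change in total RNA per cell is hidden. None of the 45 pairs of arrays held identical values.

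Of 45101 probe sets, 64 controls, 932 with several symbols and those without a gene symbol were left out. The 34945 with 1 symbol gave 18193 genes, each read from its brightest probe set by mean log2 signal. All 46 members matched a RefSeq gene. Signals below the floor (the median over arrays of each array's 40th percentile) were set to it, and a gene was tested if at least 3 of the compared arrays were above it. Tests were 2-sided, from limma 3.58.1 in R 4.3.3 on log2 intensity with an intensity trend and Benjamini-Hochberg adjustment over all genes tested, and the fit was checked on simulated data. IL-15 and resting NK cells were compared over 6 arrays. Splenocyte comparisons used all 3 groups, with the 4 chips averaged in pairs into 2 samples in 3 alternative ways, of which the largest p was kept, since the labels do not say which chips belong together. Folds are ratios of geometric means with 95% intervals. P-values measure the spread between these arrays, whose number limits the precision.

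Members named with array values were the catalytic, cap and inhibitor genes and, in each comparison and direction, the 5 with the largest difference past the threshold. Other members with array values were chosen after their values were seen. The members and lists were chosen with earlier results of these data known. Alternatives were another floor, no filter, quantile normalization, median centring, the mean over probe sets, no trend, a replicate block, a fit over all groups, separate chips and leaving out each array. Reading the probe set with the smallest difference and keeping only resting array 3 were added after seeing the data.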

Additional observations from a re-analysis of the deposited data

Results flagged for a closer look

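Psmf1, the gene of the core-binding protein PI31, had 1 splenocyte chip apart from the others. Chip 2 had a signal of 3624 against 3902, 3910 and 3939, so the gap to its nearest neighbour was 0.889 of the range on the log2 scale. The chips of this gene were close together (SD 0.06 on the log2 scale, n = 4 chips of 2 samples). Chance flags about 1 group in 20, and the splenocyte chips were examined for all the named members.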

How the results depend on the processing

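Of 940 alternatives for the named members, 864 kept their direction and side of the threshold, 44 lost and 12 gained a call, and 20 changed sign. The counts of members differed as follows. Between IL-15 and resting NK cells, 23 members were higher in the main test and 15 to 28 with 1 array left out. With every gene tested 15 were, where dim genes enter both the tests and the variance fit. The count lower was 0, 1 with median centring (Psme4) and 0 in each test with an array left out. Between resting NK cells and splenocytes, 8 were higher, 4 with the probe set of the smallest difference and 7 to 10 with an array left out, and 14 were lower (12 to 14). Between IL-15 NK cells and splenocytes, 25 were higher, 16 with the probe set of the smallest difference and 21 to 25 with an array left out. The 4 lower became 1 with every gene tested, 7 with the mean over probe sets and 2 to 4 with an array left out. The cause was not tested for these changes.

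Among the named members, signs changed in these cases, on the log2 scale. Between IL-15 and resting NK cells, the probe set of the smallest difference gave -0.04 for Psmd7, -0.33 for Psmc2 and -0.05 for Psma6. Median centring gave -0.11 for Psmb3 and -0.06 for Psma6, and the mean over probe sets -0.13 for Psmb1. Leaving out 1 array gave -0.14 to 0.29 for Psmb3, with -0.12 without resting array 1 and -0.14 without resting array 3, and -0.06 to 0.27 for Psma6, with -0.05 and -0.06 without the same arrays. Between resting NK cells and splenocytes, the mean over probe sets gave -0.27 for Psme4 and 0.02 for Psmd7, and resting array 3 alone gave -0.08 for Psmd1. The probe set of the smallest difference gave -0.85 for Psmd6, the only changed sign past the threshold among the members named with array values. Psmd11, not among these, lay above 0 against splenocytes by its brightest probe set. With the mean over probe sets it passed as lower in limma, at -0.44 at rest (adjusted p = 0.034) and -0.45 after IL-15 (adjusted p = 0.025). Between IL-15 NK cells and splenocytes, the probe set of the smallest difference gave -0.08 for Psmg2, -0.11 for Psmd7, -0.28 for Psmc2 and 0.02 for Psmb1. Those of Psmd7 and Psmc2 were the same dim probe sets, and that of Psmg2 had signals of 184, 226 and 284 after IL-15. For Psmb1 they were 789, 476 and 427. With 1 array left out Psmb7 ran from -0.23 to 0.13, the latter without IL-15 array 2, and was at 0.01 without splenocyte chip 1.

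Same-numbered NK arrays deviated from their group means with correlations of 0.092, 0.266 and 0.061 over 13418 genes. Resting arrays 1 and 2 correlated best with the IL-15 array of the same number, and resting array 3 with IL-15 array 1. So few arrays cannot settle whether equal numbers mark the pairs of which the series text speaks. The main test did not pair the samples. With the replicate number as a block, 23 members were higher and 0 lower between IL-15 and resting NK cells. The median of all genes in that comparison was -0.09 as scaled by the authors, 0 after quantile normalization and -0.18 after median centring, and the members' median was 0.68, 0.63 and 0.56. Between IL-15 NK cells and splenocytes quantile normalization moved the median of all genes from -0.10 to 0.11 and that of the members from 0.69 to 0.62. The 3′ to 5′ ratios were highest on the resting arrays. For Gapdh they were also higher on the IL-15 arrays (2.9 to 3.81) than on the splenocyte chips (1 to 1.39). Such differences and the small number of arrays limit these comparisons, and the part of the ratios was not tested.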
